A study of Homo sapiens with 20 samples.

Results

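The contacts described here are those that captured fragments of HNES1 cells made within their own chromosome in the naive state and after 1 day of the transition out of it. HNES1 is an established human embryonic stem cell line held in the naive state. A contact was taken when the captured fragment (the bait) and the other fragment (the other end) lay on the same chromosome and the interaction score was 5 or more in naive cells or at day 1. This chose 35404 of the 182303 listed contacts within chromosomes, out of 766138 listed contacts in all. Of these, 18272 were called in naive cells and 18327 at day 1.

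Poised Enhancer Capture Hi-C enriches DNA ligation products that hold a captured fragment, so each contact joins a bait to a stretch of DNA that lay near it in the nucleus. Of the 20 libraries of the series, 4 belong to these 2 states, with 2 libraries each. Naive cells, labelled day 0, were kept in N2B27 medium with PD0325901 (a MEK inhibitor), human LIF, Gö6983 (a protein kinase C inhibitor) and XAV939 (a tankyrase inhibitor), first on irradiated mouse feeder cells and then without them on Geltrex. Day 1 cells came from the same procedure, 1 day after the medium was replaced by N2B27 with XAV939 alone, so XAV939 and the basal medium were common to both states. The deposited value was 1 score per contact and state that pooled both libraries. Replicate spread was therefore not measured, and the states could not be compared by a test. The depth was unknown because no read counts were given, and all intervals below are Wilson 95% intervals that cover counting error only. Contacts carry no expression values, so the naive identity of the cells could not be checked against marker genes.

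Poised enhancers are regulatory elements that carry the Polycomb mark on histone H3 lysine 27 together with features of enhancers, and they lie near genes that are switched on later in development. Polycomb-bound regions, the HOX clusters above all, are known to touch each other over long distances in pluripotent cells. Leaving the naive state begins with the loss of MEK inhibition and LIF, after which cells pass through a formative state before they are primed.

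The promoters shown here belong to genes whose start lay in an other end that received a different number of baits in the 2 states. They are 300-base windows from RefSeq (GRCh38.p14), 250 bases before to 50 after the gene start, written 5′ to 3′ on the gene's strand with each CG dinucleotide in capitals. HOXA2 (chr7:27102634-27102933, minus strand) holds 11 CG and lay in an other end with 1 bait contact in the naive state against 8 at day 1. HOXD10 (chr2:176116528-176116827, plus strand) holds 23 CG and lay in an other end with 0 and 3. OTX2 (chr14:56810430-56810729, minus strand) holds 9 CG and lay in an other end with 1 and 0. They were chosen after their values were seen.
HOXA2: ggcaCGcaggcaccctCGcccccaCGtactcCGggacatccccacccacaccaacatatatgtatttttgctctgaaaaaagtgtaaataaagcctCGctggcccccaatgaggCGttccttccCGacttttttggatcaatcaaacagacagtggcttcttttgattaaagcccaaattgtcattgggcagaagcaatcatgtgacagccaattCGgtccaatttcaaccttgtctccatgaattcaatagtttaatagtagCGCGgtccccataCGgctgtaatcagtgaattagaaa
HOXD10: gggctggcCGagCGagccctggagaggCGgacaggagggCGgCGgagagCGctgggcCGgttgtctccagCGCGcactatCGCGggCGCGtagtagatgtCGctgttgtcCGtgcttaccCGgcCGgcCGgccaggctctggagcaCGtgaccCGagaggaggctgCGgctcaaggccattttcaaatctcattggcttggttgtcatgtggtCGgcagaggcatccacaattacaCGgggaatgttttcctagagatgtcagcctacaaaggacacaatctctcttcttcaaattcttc
OTX2: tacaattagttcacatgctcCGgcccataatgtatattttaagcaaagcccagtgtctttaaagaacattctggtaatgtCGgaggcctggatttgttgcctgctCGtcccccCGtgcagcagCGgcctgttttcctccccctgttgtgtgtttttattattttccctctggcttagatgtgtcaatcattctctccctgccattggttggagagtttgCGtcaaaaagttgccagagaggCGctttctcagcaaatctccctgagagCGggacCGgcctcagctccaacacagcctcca

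CG on either strand was found in 98.1% of the 15766 promoter windows of protein-coding genes used, with a median of 22, so the windows of HOXA2 and OTX2 held fewer than the median and that of HOXD10 about as many. GATC, the site cut by DpnII in making the libraries, was found in 39.7% of all windows, in 43.9% of 488 windows of genes whose start lay in other ends with more contacts at day 1, and in 42.4% of 439 with fewer. The median number of CG was 21 in the first group and 19 in the second.

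How far the contact map changed within a day was the first question. Naive cells and day 1 had nearly the same number of contacts, and day 1 held 50.1% of both together (49.6 to 50.6). Few were the same contacts. In this text a contact is gained when it was called at day 1 only, lost when it was called in naive cells only, and kept when it was called in both. There were 17132 gained contacts (48.4% of those called in either), 17077 lost (48.2%) and 1195 kept. The kept contacts were 6.54% of the naive calls (6.19 to 6.91). With the 18272 top-scoring contacts of each state, 1193 were shared, or 6.53%. The kept share was 14.0% at a score threshold of 10, and 12.6% when a day 1 contact of the same bait within 10 kb counted as the same. The share at a threshold of 10 includes contacts over 1 Mb, some of whose scores are uncertain, as described below. An equal number of calls from naive cells and from any of the other columns shared between 5.97% (day 5) and 7.52% (NE, neuroectoderm), so the share with day 1 lay within the range of the columns sampled later or after differentiation.

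Most gained and lost contacts had little or no score on the other side. Gained contacts had a median score of 5.67 at day 1 and 0.889 in naive cells, and lost contacts 5.66 in naive cells and 0.884 at day 1. A score of 0 in the other state was found for 42.0% of the gained and 42.0% of the lost contacts. A score of 3 or more there was found for 11.7% of the gained and 12.4% of the lost, and of 4 or more for 4.33% and 4.59%. Most contacts that changed class thus did not score just under 5 in the other state. Whether they differed by more than the sampling of reads was not tested, because no read counts were given.

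The kept share was higher at higher scores, and the intervals of neighbouring score ranges did not overlap. Of naive contacts with a score of 5 to 6, 4.23% were also called at day 1 (3.88 to 4.62). The share was 7.82% at 6 to 8, 15.1% at 8 to 10 and 32.8% at 10 to 15 (27.7 to 38.3). At 15 or more it was 76.9%, which was 30 of 39 contacts (61.7 to 87.4), and 11 of 17 when only contacts up to 1 Mb were taken. Read from the day 1 side the shares were close to these, from 4.27% at 5 to 6 to 79.3% at 15 or more (23 of 29). Of the 100 top-scoring contacts of each state 26 were shared, but 9 of these spanned up to 1 Mb.

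**Figure D1:**
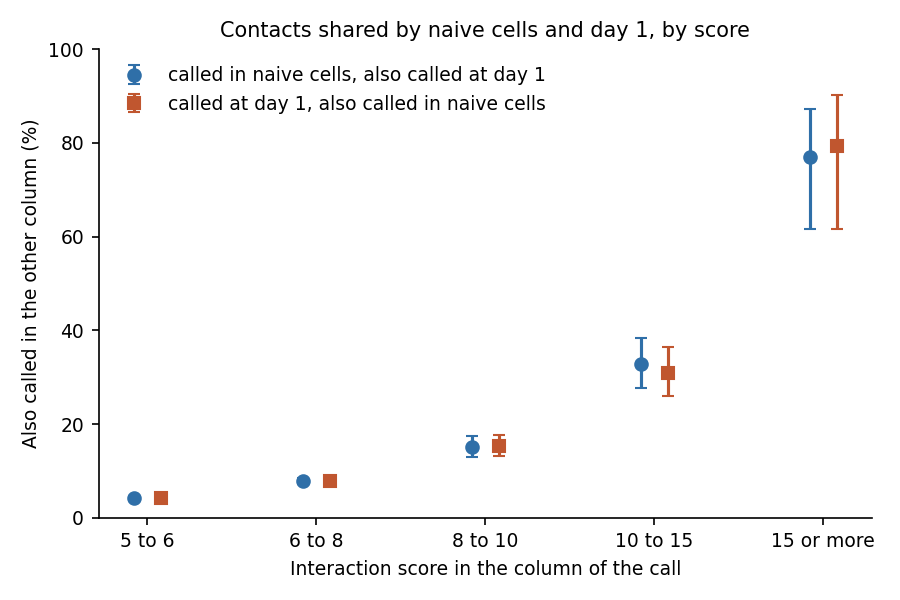
Percentage of called contacts within chromosomes that were also called in the other state (vertical axis), by interaction score in the state of the call (horizontal axis), with Wilson 95% intervals that cover counting error only. Both directions rise together, from about 4% at a score of 5 to 6 to 76.9% and 79.3% at 15 or more.

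Contacts of every span were exchanged. Kept contacts had a median span of 169 kb, gained 221 kb and lost 229 kb. The kept share of naive contacts was 12.3% below 25 kb (8.14 to 18.3), 8.10% at 100 to 250 kb and 1.95% at 500 to 1000 kb (1.36 to 2.78). Contacts below 25 kb numbered 162 in naive cells and 220 at day 1, so day 1 held 57.6% of them (52.6 to 62.4). At 500 to 1000 kb the numbers were 1491 and 1398, and day 1 held 48.4% (46.6 to 50.2). Over 1 Mb there were 86 and 77 contacts, and the interval of the share of day 1 (47.2%, 39.7 to 54.9) held equal numbers. Contacts from one bait to another numbered 130 in naive cells against 135 at day 1, and 8 of the 130 were kept.

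Whether contacts gained within the first day stayed was asked of the days sampled later, which had no part in the choice. Of the gained contacts 16.9% were called again on at least 1 of days 3, 5, 7, 10 and 14 (16.4 to 17.5). Of the lost contacts 16.6% were called again on those days (16.1 to 17.2), and the intervals overlapped. Of the kept contacts 69.0% were called again (66.4 to 71.6). Every listed contact reached 5 in at least 1 column, so contacts that scored less than 5 in both states are listed only for a high score elsewhere, and no threshold under 5 was used for this. On any single day the gained contacts stood at 4.40% (day 10) to 5.52% (day 3) and the lost at 4.26% (day 7) to 5.80% (day 3). 

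**Figure D2:**
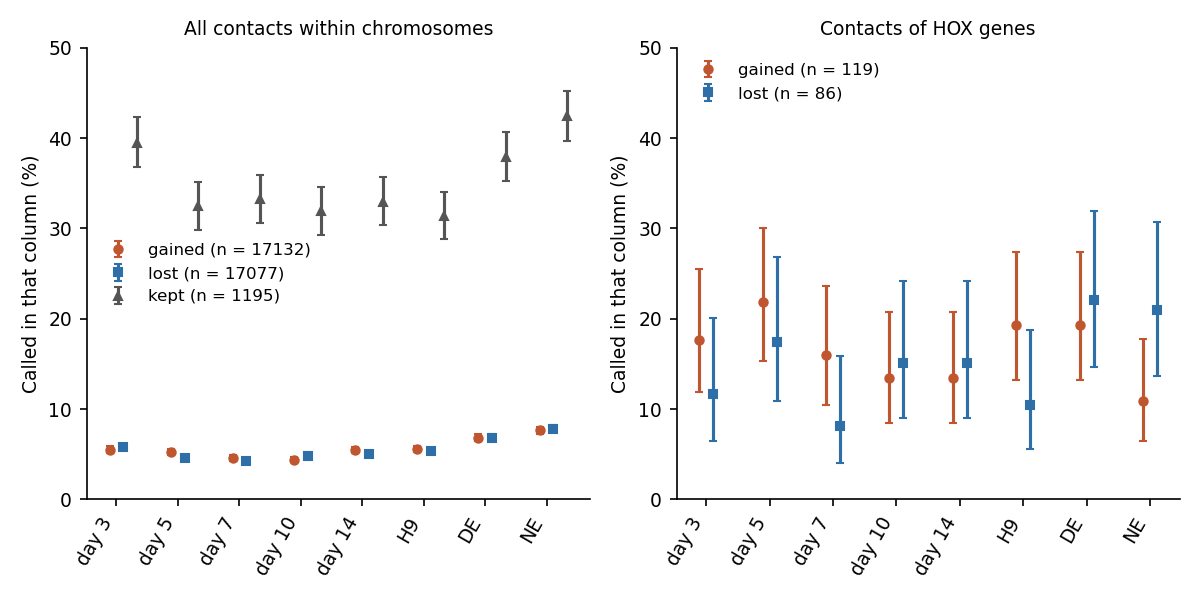
Percentage of gained, lost and kept contacts that were called in each column sampled later (vertical axis; H9 is the primed line, DE definitive endoderm and NE neuroectoderm), for all contacts within chromosomes (left) and for contacts of HOX genes (right), with Wilson 95% intervals. On the left gained and lost contacts lie between 4.26% and 7.81%, and kept contacts above 31%. On the right the intervals of gained and lost HOX contacts overlap in every column.

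HOX genes, which set position along the body axis and are held by Polycomb in pluripotent cells, had more contacts at day 1. A gene was linked to a contact when an annotated end of it lay in the bait or the other end, widened by 1 kb. The 39 HOX genes had a mean of 3.10 contacts in naive cells and 4.41 at day 1. More contacts at day 1 were found for 20 of the 39 and fewer for 11, with 8 at an equal number, while 20.3% of all 11292 linked genes had more and 20.1% fewer. Their median change was 1 contact, and that of all linked genes was 0. All linked genes had a mean of 0.586 contacts in naive cells, and 6723 of them were equal in both states. Genes with few contacts have less room to change, so their shares are not like those of HOX genes. Summed over the HOX genes there were 121 and 172 links, of which day 1 held 58.7% (53.0 to 64.2), against 50.2% for all linked genes. Counting each contact once gave 103 and 136 contacts, and 56.9% (50.6 to 63.0). The interval of the links included 50% without the 1 kb margin (49.4 to 64.5) and at a score threshold of 10 (35.4 to 84.8). Several contacts share a bait, an other end or a gene, while these intervals take contacts as independent, so they are likely too narrow.

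The difference was larger with the gene at the other end than at the bait. With the gene at the other end, 18 HOX genes had more contacts at day 1 and 5 fewer, and the links numbered 40 and 83, so that day 1 held 67.5% (58.8 to 75.1). The background there was 16.1% of 9444 linked genes with more and 14.7% with fewer, and it is unlike the HOX genes in the same way. Counting each contact once left 62.6% (52.4 to 71.9), from 34 and 57 contacts. With the gene at the bait the links numbered 81 and 89, and day 1 held 52.4% (44.9 to 59.7). The intervals of both sides overlapped. Over all linked genes day 1 held 52.1% of the links with the gene at the other end and 49.2% with the gene at the bait.

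By cluster, HOXC on chromosome 12 (53938831 to 54056030) had 47 contacts in the naive state against 66 at day 1. HOXA on chromosome 7 (27092993 to 27200091) had 28 and 37, and HOXD on chromosome 2 (176087487 to 176190907) had 11 and 17. HOXB on chromosome 17 (48528526 to 48728750) had 17 and 16, with 2 of its genes having more and 5 fewer. By these counts HOXA, HOXC and HOXD had more contacts at day 1 and HOXB did not. The counts are small, and whether the clusters differed was not tested. Of the HOXB contacts 0 were kept, against 6 for HOXA, 9 for HOXC and 2 for HOXD. Later columns held more contacts of all genes as well. The mean per linked gene was 0.592 at day 1 and 0.797 at day 3 and stood at 0.617, 0.623 and 0.717 on days 7, 10 and 14. For HOX genes the means on these 5 days were 4.41, 6.56, 5.18, 4.85 and 8.33. HOXA had 69 contacts at day 3, 30 at day 10 and 84 at day 14, while HOXC had 66 at day 3, 48 at day 7 and 70 at day 14. HOXB reached 37 at day 3 and 50 at day 14.

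**Figure D3:**
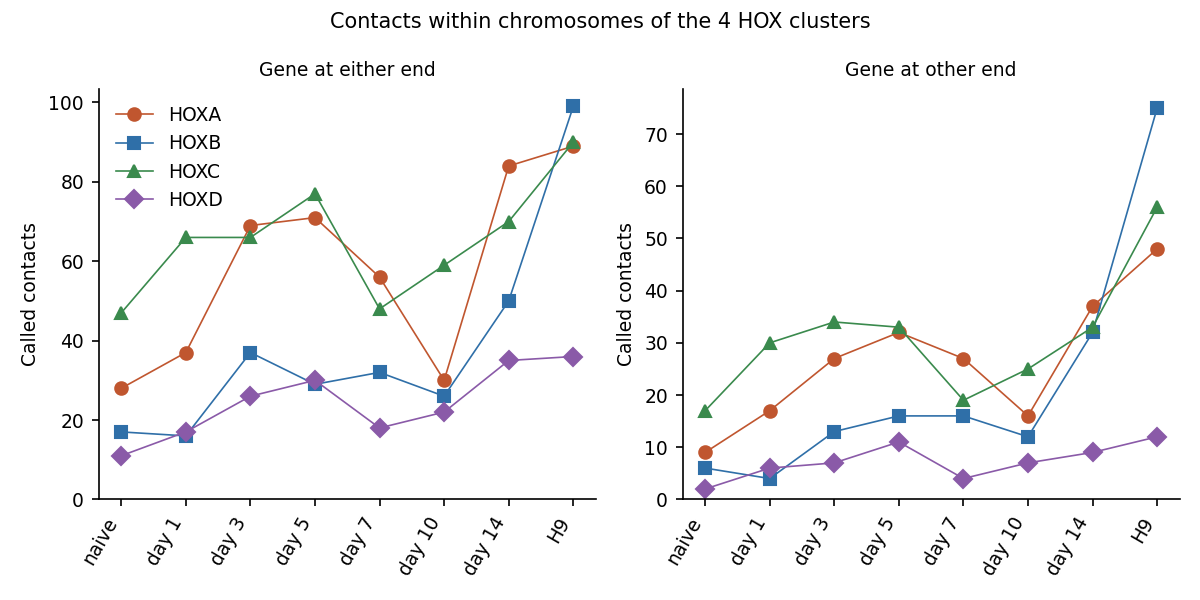
Number of called contacts within chromosomes (vertical axis) of the 4 HOX clusters in each sampled column (horizontal axis), with a HOX gene at either end (left) and at the other end (right). From naive to day 1 HOXC goes from 47 to 66, HOXA from 28 to 37 and HOXD from 11 to 17, while HOXB goes from 17 to 16. Numbers at days 7 or 10 are lower than at day 5 and numbers in H9 higher, as was also so for the mean over all linked genes (0.743 at day 5, 0.617 and 0.623 at days 7 and 10, and 0.816 in H9).

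A single stretch held most of the net change in HOXA, from 28 contacts in naive cells to 37 at day 1. Other HOXA contacts were gained and lost as well, since 6 of the cluster were kept. The other end at 27101770 to 27106229 on chromosome 7, which holds the start of HOXA2 and lies within 1 kb of the downstream end of HOXA3, had 1 contact in the naive state against 8 at day 1. HOXA2 patterns the hindbrain and the second branchial arch, and HOXA3 the arches behind it. The 1 kept contact came from a bait at HOXA9, 61.3 kb away, with scores of 6.06 and 7.13. The 7 gained contacts came from 7 baits at 57.7 to 246 kb, which lay at HOXA9, near HOXA11 and HOXA13, at EVX1 and, on the far side, at SKAP2 (3 baits). Their naive scores ran from 0 to 4.07 and their day 1 scores from 5.41 to 10.1. Of the 7, 5 were called again on a later day, and the stretch had 6, 8, 10, 4 and 10 contacts at days 3, 5, 7, 10 and 14. HOXA2 and HOXA3 shared these 8 contacts, and with their own baits had 4 and 10 contacts (HOXA2) and 1 and 10 (HOXA3). The promoter of HOXA2 printed above lies inside this stretch.

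A stretch in HOXC showed the same pattern. The other end at 54041085 to 54046082 on chromosome 12, within the span of HOXC4, had 0 contacts in the naive state against 7 at day 1, and 9, 12, 7, 6 and 10 at days 3, 5, 7, 10 and 14. The 7 came from baits at HOXC11, at HOXC4 and near SMUG1, a DNA repair gene beside the cluster, at 7.10 to 154 kb. Their naive scores ran from 0 to 4.70 and their day 1 scores from 5.07 to 10.1, and 5 of the 7 were called again later. Both stretches stood among the 3 with the largest gain of all 109016 listed other ends, of which 12.6% had more contacts at day 1 and 12.6% fewer. A gain of at least 5 was found at 11 other ends and a loss of at least 5 at 3. These stretches were chosen after their values were seen.

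HOXC11, which patterns the posterior body and hindlimb, had the largest gain of any HOX gene, with 8 contacts in the naive state against 22 at day 1. Of these 3 were kept, 19 gained and 5 lost. The kept ones joined a bait at HOXC11 to stretches 208 to 234 kb away, and the strongest, toward the neighbourhood of SMUG1 and CBX5, had scores of 6.66 and 17.5. Of the 19 gained contacts 5 were called again on a later day, and the gene had 14 contacts at days 3 and 5, 4 at day 7 and 10 at day 14. Without HOXC11 the HOX genes had 57.0% of their links at day 1 (51.0 to 62.9).

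HOXC10 had 8 and 13 contacts, HOXC8 3 and 7, HOXB5 4 and 8, HOXD10 0 and 3, and HOXD11 0 and 4. In the other direction HOXB1 had 4 and 0, HOXC13 11 and 7, HOXA13 2 and 0 and HOXD3 3 and 1. HOXA9 had 6 and 7. Of the HOX contacts gained at day 1, 45.4% were called again on days 3 to 14 (36.7 to 54.3, 54 of 119), beside 16.9% of all gained contacts. Of the HOX contacts lost at day 1, 37.2% were called again (27.7 to 47.8, 32 of 86), beside 16.6% of all lost ones, and the intervals of these HOX shares overlapped.

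Other developmental transcription factors, the homeobox, forkhead, T-box and related genes that direct cell fate later, had a mean of 1.47 contacts in naive cells and 1.66 at day 1. Of 154 linked genes 61 had more, 46 had fewer and 47 were equal, beside 20.3% of all linked genes with more and 20.1% with fewer. Here and for the lists below, that background includes many genes with few contacts, which have less room to change. Their links numbered 227 and 255, and day 1 held 52.9% (48.4 to 57.3), an interval that held 50%. Of their gained contacts 18.6% were called again later (14.3 to 23.9) and of the lost 19.1% (14.4 to 24.8).

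Within this list OTP (chromosome 5), whose homeobox protein acts in the hypothalamus, had 1 contact in naive cells, 9 at day 1 and 30 at day 3. Its 9 day 1 contacts were all gained, came from 3 baits and reached 172 to 403 kb to the right of the gene, with scores of 5.08 to 8.70 against 0 to 3.41 in naive cells. Of these 9, 3 were called again on a later day, although the gene had 9 to 30 contacts on those days. LHX9, a LIM homeobox gene of gonad and brain, had 3 and 10 contacts, and 3 at day 3. TBX15, a T-box gene of limb and skeleton, had 0 and 6, and 1 at day 3. None of the 10 gained contacts of LHX9 and none of the 6 of TBX15 was called again on a later day. PAX2, a kidney and eye gene, had 0 and 4 contacts.

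The links of naive pluripotency genes were few in total. Of the 30 genes 12 were linked, with 6 links in naive cells and 8 at day 1 (57.1%, 32.6 to 78.6). Per linked gene the means were 0.5 (naive) and 0.667 (day 1), beside 0.586 and 0.592 over all 11292 linked genes. Of the 12 genes 2 had more and 2 fewer, beside 20.3% and 20.1% of all linked genes. TFAP2C, a factor of the naive state and of trophoblast, had 0 contacts in the naive state against 3 at day 1, all from 1 bait in the gene at 137 to 421 kb. TFCP2L1, a naive factor, had 0 and 1. DNMT3L, a DNA methyltransferase cofactor known as a naive marker, had 1 and 0. That contact joined a bait at AIRE and PFKL to a stretch just inside the start of DNMT3L 40.0 kb away on chromosome 21, and it was among the strong naive contacts, with scores of 13.3 in naive cells, 1.99 at day 1 and 7.12 at day 3. KLF17, DPPA3, DPPA5 and ZIC2 had no listed contact within chromosomes.

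Of the 30 formative and primed pluripotency genes 22 were linked, with 19 and 15 links (44.1%, 28.9 to 60.5). Of these genes 4 had more contacts and 7 fewer, beside 20.3% and 20.1% of all linked genes. OTX2, a homeobox factor of the formative state, had 3 contacts in the naive state against 0 at day 1. They came from 2 baits 83.6 to 104 kb upstream, and their naive scores were 5.49, 7.04 and 8.72 against 3.32, 0.702 and 1.69 at day 1. OTX2 had 5 contacts at day 3 and 6 at day 7, and 1 of the 3 lost contacts was called again. FZD7, a WNT receptor of primed cells, had 4 and 7, of which 3 were kept, and SFRP1, a secreted WNT antagonist, had 3 and 1. General pluripotency genes had 4 and 3 links.

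ERK is the kinase pathway that the MEK inhibitor blocks, and its removal is part of the change of medium. Of 31 linked ERK response genes 5 had more contacts at day 1 and 8 fewer, beside 20.3% and 20.1% of all linked genes. Their links numbered 19 and 17 (47.2%, 32.0 to 63.0). JUN, an immediate early transcription factor, had 0 contacts in the naive state against 5 at day 1, from 3 baits, with scores of 5.45 to 5.71. GBX2, a homeobox gene, had 0 and 3, the strongest at 9.68 over 544 kb. VGF, a neuropeptide precursor, had 3 and 0. None of these gained or lost contacts was called again on days 3 to 14. DUSP6, a phosphatase induced by ERK, had 0 in both states.

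Of the 19 linked genes of the LIF, JAK-STAT and Hippo response 6 had more contacts and 4 fewer. Over all linked genes these shares were 20.3% and 20.1%. The links of the 19 genes numbered 11 and 16 (59.3%, 40.7 to 75.5). CISH, a feedback inhibitor of cytokine signalling, had 1 and 5, from 4 baits at 107 to 287 kb for the gained ones.

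Signalling genes of the WNT, FGF, BMP, hedgehog and axon guidance pathways were balanced as a list, with 76 and 77 links (50.3%, 42.5 to 58.1). Of 69 linked genes 23 had more and 17 fewer, beside 20.3% and 20.1% of all linked genes. Single WNT pathway genes differed by more. WNT10B, a WNT ligand, had 8 contacts in the naive state against 0 at day 1, and 11, 1 and 11 at days 3, 5 and 7. Its 8 lost contacts came from 5 baits, with naive scores of 5.04 to 7.10 and day 1 scores of 0 to 4.08. Only 1 of those 8 was called again on a later day. DKK1, a secreted WNT inhibitor, had 11 and 5, with 2 kept. WNT11, a ligand of the planar polarity branch, had 2 and 7.

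Trophectoderm and amnion genes had 31 and 32 links, with 5 of 17 having more and 6 fewer. CDX2, a trophectoderm homeobox factor, had 2 and 5, and PGF, a placental growth factor, 3 and 0. Genes of the Polycomb complexes themselves had 25 and 24 links, with 5 of 24 having more and 7 fewer. For both lists the background was 20.3% of all linked genes with more and 20.1% with fewer. PHC2, a subunit of Polycomb repressive complex PRC1, had 3 and 6, EPOP, a PRC2 partner, 5 and 3, and EZH1, a PRC2 catalytic subunit, 3 and 1. Housekeeping genes had 3 and 1 links over 15 genes. Among the fixed genes of later lineages SOX17, of endoderm and germ cells, had 3 and 3 contacts with 0 kept, and NKX2-1, of lung and thyroid, had 0 and 1.

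**Figure D4:**
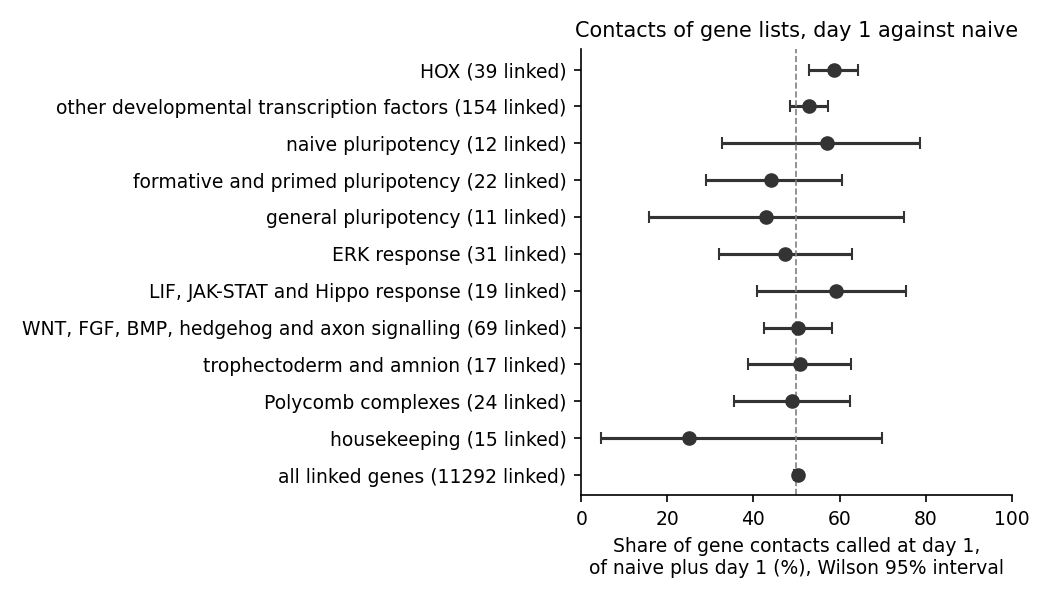
Share of gene contacts called at day 1, of those in naive cells plus day 1 (horizontal axis, %), for each gene list (vertical axis, with the number of linked genes), with Wilson 95% intervals; the dashed line marks equal numbers. The interval of the HOX genes (58.7%, 53.0 to 64.2) lies above 50%, and the intervals of the other 10 lists include it.

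Over all genes, gains and losses mirrored each other. Of 11292 linked genes 2294 had more contacts and 2275 fewer. A change of at least 5 was found for 40 genes up and 40 down, and of at least 8 for 7 up and 3 down. ZNF385A, a zinc finger gene beside the HOXC cluster, had the largest gain, with 10 contacts in the naive state against 27 at day 1, then 27, 21, 29, 25 and 31 at days 3 to 14. Of its 24 gained contacts 14 were called again on a later day. HOXC11 came next, followed by IL23A, a cytokine subunit gene, with 0 and 13. The contacts of IL23A came from 2 baits and reached STAT2, TIMELESS, MIP, GLS2 and SPRYD4, with day 1 scores of 5.02 to 12.3, and 6 of the 13 were called again later. GIMAP2, a GTPase gene of lymphocytes, had 12 and 23, with 6 kept. GFRA3, a receptor of the neurotrophic factor artemin, had 4 and 12. TANC2, a scaffold gene of synapses, had 7 and 14, TACC1, a centrosome gene, 6 and 13, and TRABD2B, an inhibitor of WNT proteins, 4 and 11.

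Among the losses TMEM158, a RAS-responsive membrane protein gene, had 12 contacts in the naive state against 1 at day 1. Its 12 lost contacts came from 5 baits, with naive scores of 5.05 to 6.96, and 2 were called again. SGPP2, a sphingosine phosphatase gene, had 15 and 7, COPZ2, a coat protein gene, 10 and 3, SLC35A3, a nucleotide sugar transporter gene, 13 and 7, and MRPL39, a mitochondrial ribosome gene, 11 and 5. NBPF1 had 21 and 15, LOC124900752 had 8 and 2, and MT1G, a metallothionein gene, 8 and 2. WNT10B and DKK1 were also among the 10 largest losses. Later counts did not follow the day 1 value for most of these genes. TMEM158 had 2, 5, 10, 11 and 14 contacts at days 3, 5, 7, 10 and 14, and SLC35A3 had 15 and 18 at days 3 and 5, while MT1G stayed at 0 to 2.

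Baits with more and with fewer contacts were about equal in number. Of 25252 baits with a listed contact, 6488 had more contacts at day 1 (25.7%) and 6507 fewer (25.8%). Of 5858 baits called in both states 883 kept at least 1 contact and 4975 kept none. The bait just left of ZNF385A on chromosome 12 (54367871 to 54368525) had 6 contacts in the naive state against 20 at day 1, of which 3 were kept. Its 17 gained contacts lay 18.4 to 399 kb away, among them stretches at CBX5, NFE2, COPZ1, GTSF1 and HOXC10, and its day 1 scores reached 12.6 for a kept and 11.1 for a gained contact. It had 9 to 20 contacts on the later days. Other baits with large gains on the same list also lay on chromosome 12, near HOXC12 (2 and 11) and 81.6 kb from ATF7IP (1 and 12). A bait in PMP22, a myelin protein gene on chromosome 17, had 13 and 24 contacts, with 10 kept, more than any other bait named here. The other baits within 10 kb of these baits did not follow. Together they had 4 and 3 contacts by the ZNF385A bait and 4 and 2 by the HOXC12 bait. They had 0 and 0 by the ATF7IP bait, and 7 and 8 by the PMP22 bait. Among the remaining largest gains, such neighbours had 0 and 4 contacts by the bait in IL23A and 1 and 2 by a bait 71.6 kb from ABCC4. They had 0 and 0 by the bait in GIMAP2, and 30 and 15 by a bait 72.1 kb from TBCA.

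The largest loss was at a bait in CUX2, a homeobox gene of cortical neurons on chromosome 12 (111154490 to 111156753), with 21 contacts in the naive state against 4 at day 1. It had 2 to 9 on the later days and 16 in NE. A bait near KCMF1 on chromosome 2 had 12 and 2, with lost contacts at TCF7L1, a WNT pathway repressor, and had 11 at day 3. A bait on chromosome 4, 104 kb from CHIC2, its nearest gene, had 15 and 6. Baits 51.8 kb from PAIP2B (10 and 1), in SLC35A3 (13 and 5), in TTLL6 (12 and 4) and in MFAP3L (10 and 2) followed. The other baits within 10 kb mostly did not lose contacts. Together they had 13 and 16 near KCMF1, 8 and 12 near TTLL6, 0 and 2 near SLC35A3, and 0 and 1 near CUX2. They had 5 and 5 by the MFAP3L bait, 0 and 0 by the PAIP2B bait, and 2 and 0 by the CHIC2 bait.

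**Figure D5:**
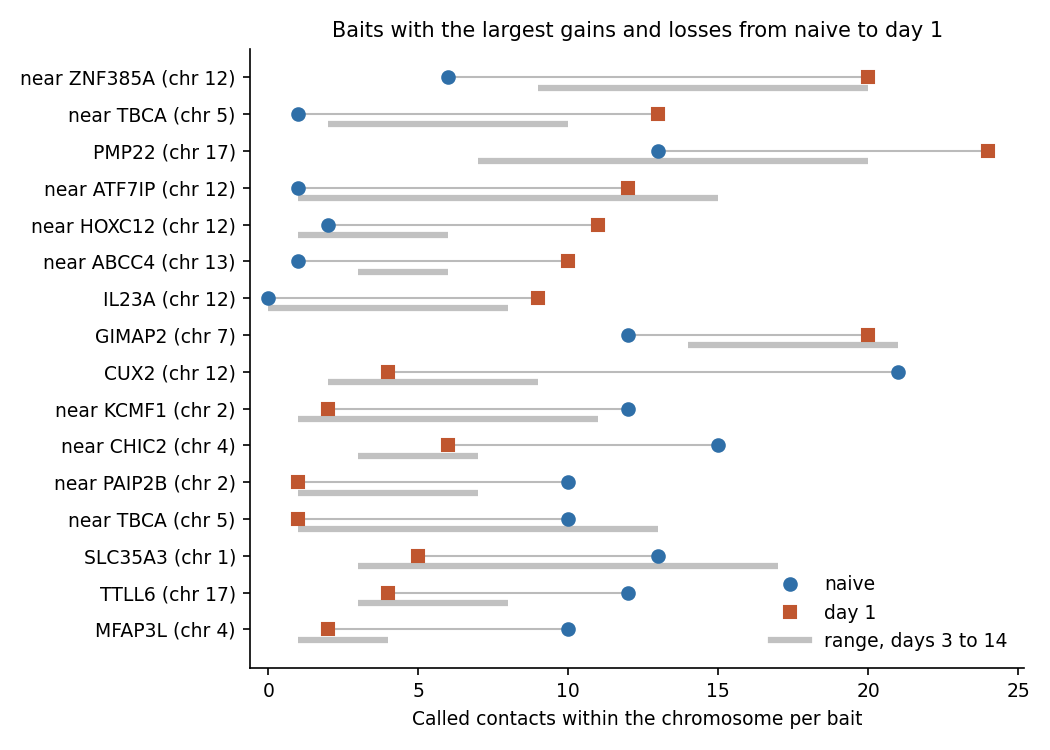
Called contacts within the chromosome (horizontal axis) of 16 baits (vertical axis, nearest gene; the 8 largest gains above the 8 largest losses), in naive cells (circles) and at day 1 (squares); grey bars give the range over days 3 to 14. The bait in CUX2 goes from 21 to 4, and the bait near ZNF385A from 6 to 20. The baits were chosen for these values. Genes labelled near lie up to 104 kb from the bait.

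Neighbouring baits changed in opposite directions about as often as in the same one. A pair on chromosome 5, 70.2 and 72.1 kb from TBCA, the nearest gene, was the clearest case. The bait at 77847992 to 77848889 had 1 contact in the naive state against 13 at day 1, while the bait at 77845896 to 77847132, just to its left, had 10 and 1. At day 3 they had 10 and 13 contacts, and at day 7 they had 5 and 1. Over all chromosomes, 14565 pairs of neighbouring baits lay up to 10 kb apart, and in 4107 of them both baits changed. In 51.0% of these they changed in the same direction, 2093 pairs against 2014.

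By 1 Mb window, 983 of 2468 windows had more contacts at day 1 (39.8%) and 1048 fewer (42.5%). The window with the largest gain was chromosome 12 from 54000001 to 55000000, which holds the right part of the HOXC cluster, CBX5 and ZNF385A, with 150 contacts in the naive state against 190 at day 1. The window to its left had 92 and 122. They had 227 and 134 contacts at day 3. The OTP window on chromosome 5 (77000001 to 78000000) had 89 and 116, and 165 at day 3. On chromosome 1 the window with FOXD2, TAL1 and TRABD2B (47000001 to 48000000) had 62 and 101, and the window to its left 44 and 66.

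In that window an other end 54.7 kb from TRABD2B (47700589 to 47705867) had 4 contacts in the naive state against 13 at day 1, the largest gain of any other end. All 4 naive contacts were kept. The 9 gained ones came from 9 baits 3.11 to 92.9 kb from the nearest gene. That gene was FOXE3, a lens forkhead gene, or FOXD2, a kidney and skeletal forkhead gene. The gained contacts spanned 169 to 279 kb, with day 1 scores of 5.49 to 8.33 against 0 to 3.80 in naive cells. The stretch had 4 to 7 contacts on days 3 to 14. The windows with the largest losses were chromosome 12 from 130000001 to 131000000 with FZD10 and PIWIL1 (51 and 30), chromosome 1 from 94000001 with ABCA4 and ARHGAP29 (74 and 57), chromosome 5 from 154000001 with HAND1 (47 and 31), chromosome 1 from 24000001 with RUNX3 (28 and 12), chromosome 1 from 16000001 with NBPF1 (48 and 33), and chromosome 3 from 187000001 with SST (42 and 27). In the ABCA4 window an other end within ABCA4 (94059438 to 94064529) had 10 contacts in the naive state against 2 at day 1, the largest loss of any other end, from baits at ABCA4 and ARHGAP29.

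The strongest single contacts were chosen by size of change. Up to 1 Mb, the largest gains joined a bait near ADRA1D, an adrenergic receptor gene, to a stretch 345 kb away on chromosome 20 (score 0 in naive cells, 14.0 at day 1), a bait in PMP22 to TVP23C on chromosome 17 (0 and 13.8 over 246 kb), and a bait near PDGFRA to a stretch 101 kb from CHIC2 on chromosome 4 (0 and 12.5 over 316 kb). The largest losses joined a bait at ACHE, the acetylcholinesterase gene, to MUC17 on chromosome 7 (14.1 and 0 over 164 kb), a pair of baits 345 kb apart on chromosome 20 (14.1 and 0), a bait near NT5M to a stretch 39.9 kb from RAI1 on chromosome 17 (13.2 and 0 over 285 kb), and a bait in CFAP299 to BMP3, a BMP ligand gene, on chromosome 4 (12.9 and 0 over 708 kb). The gene nearest to one bait of the chromosome 20 pair was FOXA2, an endoderm pioneer factor, 241 kb away. That contact had scores of 5.93 and 8.74 at days 3 and 5 and of 18.3 in NE. The ADRA1D contact had 0 at day 3 and 11.6 at day 5.

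The strongest kept contacts up to 1 Mb joined another bait of PMP22 to a stretch beside TVP23C (21.2 in naive cells and 27.5 at day 1 over 244 kb), a bait 23.0 kb from SYCE1L to a stretch 139 kb from NUDT7 on chromosome 16 (15.7 and 23.1 over 347 kb), a bait near HOXC8 to a stretch near CBX5, the gene of heterochromatin protein 1 alpha (17.7 and 14.5 over 204 kb), and a bait near FBLN2 to a stretch beside WNT7A (15.2 and 13.8 over 226 kb). The HOXC8 contact scored 9.27 to 17.8 on all later days, and the FBLN2 contact 5.65 to 15.5. The PMP22 contact scored 9.75 to 13.5.

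Contacts over 1 Mb had the highest scores of all and behaved differently. The 6 kept contacts with the highest lower score all joined the opposite sides of the centromere of chromosome 16, with naive scores of 78.4 to 138. The top-scoring pair of fragments was listed from either side, with naive scores of 138 and 115. Scores of exactly 28.4565 and 27.7633 recurred among these contacts in columns other than naive and day 1. Why they recurred was not tested, so the scores of these 6 contacts are uncertain. On chromosome 1 a bait in NBPF1 (16612691 to 16613430) had a contact 218166 kb away with scores of 19.3 and 0, while the adjoining bait (16612488 to 16612690) had scores of 0 and 21.9 with the same other end. NBPF1 belongs to a family of near-identical copies, so these values are uncertain. Of the 86 naive contacts over 1 Mb 24 were kept, or 27.9% (19.5 to 38.2). The 6 kept contacts of chromosome 16 are among these 24, so this share is uncertain too.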

How the data were processed

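The series holds 20 Poised Enhancer Capture Hi-C libraries from 10 conditions, and 1 deposited column per condition pooled both of its libraries. The values were CHiCAGO interaction scores per the labels, which the authors computed for each pair of fragments. The deposited distance in bp gave the span. Coordinates were on GRCh38 per the submitters' processing notes. Which aligner, caller version, fragment bins and filters were applied is not given in the sources used here. Every listed contact reached a score of 5 in at least 1 column.

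Contacts with both fragments on 1 chromosome were called at a score of 5 or more and counted per listing. Genes (19957 protein-coding, 95 readthrough genes left out) came from RefSeq and were linked within 1 kb, at a gene's annotated ends. Genes named were, per list, the 3 with the largest change of at least 2, and over all genes 10 each way. Baits (8 each way), 1 Mb windows (6 each way) and contacts (6 of each class, partly shown) were ranked likewise, and 12 genes were fixed. Other ends were ranked after the data were seen. The members, the 11 lists and these rules were chosen with earlier results of these data known. The counting was tested on simulated data. Python 3.11.15, pandas 2.3.3, numpy 2.4.6 and matplotlib 3.10.9 were used. Alternatives were other thresholds, an equal number of contacts, quantile-normalised scores, each pair once, no bait-to-bait contacts, merged positions and other gene links.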

Additional observations from a re-analysis of the deposited data

How the results depend on the processing

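No paired analysis was possible because each deposited column pools both replicates of its condition, and for the same reason neither replicate could be left out. Read depth was unknown, so how far depth limits the sharing of contacts could not be measured, and calls near the threshold are the least secure. The share of naive contacts kept at day 1 (6.54%) moved with the processing. It was 14.0% at a score threshold of 10 and 12.6% with other ends within 10 kb taken as shared. It was 10.8% when naive contacts that scored no more than 1 below the threshold at day 1 were also counted as kept. It was 11.2% with runs of baits up to 10 kb apart merged, and 23.8% with baits and other ends both taken as shared within 10 kb. These merges were chosen after seeing the data. The share at a threshold of 10 includes contacts over 1 Mb, among them those of chromosome 16 with uncertain scores. A threshold of 3 gave 23.3% kept, and 57.8% of the gained and 55.6% of the lost called again, but contacts scoring 3 to 5 are listed only because another column reached 5, so these values cannot be set beside those at 5 and say nothing about the threshold. At a threshold of 10 day 1 held 48.9% of all contacts (45.0 to 52.7) and 14.3% of those of other developmental transcription factors, which was 1 of 7. With the gene at the other end only, HOX genes had 67.5% of their links at day 1. The other 16 HOX values lay between 56.9% and 63.6%, and without a cluster in turn between 57.9% and 60.4%. The intervals without the 1 kb margin (49.4 to 64.5) and at a threshold of 10 (35.4 to 84.8) included 50%. Contacts called again on a later day were 22.7% of the gained and 22.9% of the lost at a threshold of 10, 15.9% and 15.8% with an equal number of contacts, and 25.4% and 25.2% with baits merged. Of 101 alternatives of the 9 further lists 91 stayed within the interval of the reported share and 10 moved outside it. The reported intervals of these 9 lists all included 50%, so crossings of 50% were not counted.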
